A study of Rattus norvegicus with 30 samples.

Results

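The extracellular matrix genes described here are collagen chains, laminin chains, fibulins, fibrillins, nidogens and thrombospondins, together with Fn1, Sparc, Spp1, Tnc, Dcn, Bgn, Lum, Lox and Eln. They were picked by symbol, as the array's probe sets with 1 annotated gene symbol of these families. The rule uses no measured value, but it was written with earlier results of these data known. The choice gave 101 probe sets for 72 genes, among 20826 probe sets with 1 symbol and 31042 in all without control probe sets. Of these genes, 52 had a probe set bright enough to be tested (69 probe sets) and 20 did not. RNA was taken from the testes of Fischer rats, males aged 28 postnatal days, killed with CO2 after a single oral gavage. The MEHP groups received mono-(2-ethylhexyl) phthalate, the active metabolite of a common plasticizer, at 1 g/kg in corn oil, and the control groups corn oil alone. Both were sampled at 1, 2, 3, 6 and 12 h, with 3 animals in each of the 10 groups and 1 array per animal. The gavage was given early in the morning to the 12 h animals, later in the morning to the 6 h animals and in the afternoon to the others, so times differ in more than the interval. Corn oil animal 7 of 2 h is labelled corn oil by its title and treatment, but its description code has the digit that the MEHP arrays' codes have, so its label is in some doubt and values without it are given where they bear on a result. Whole testis is a mixture of cells, in which fewer cells of a type and less RNA per cell cannot be told apart.

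The seminiferous tubule rests on a basement membrane, a thin sheet in which networks of type IV collagen and laminin are held together by nidogens. Sertoli cells on the inner side and peritubular myoid cells on the outer side both make it, and the interstitium around the tubules holds fibrillar collagens with small leucine-rich proteoglycans such as decorin and lumican. Lysyl oxidase crosslinks collagen and elastin after secretion, and matricellular proteins such as osteopontin and tenascin C act on cells more than they bear load.

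The promoters of 3 basement membrane genes that were higher at 12 h are printed first, because Col4a1 and Col4a2 lie head to head and share most of theirs. They are RefSeq windows of the rat build GRCr8, 250 bases before to 50 after the start of the gene, read 5′ to 3′ on the strand of the gene. RefSeq windows were matched by symbol for 52 of the 72 genes, 37 of them tested. Capitals mark matches, on either strand, to 5 motifs that were searched: the AP-1 letters TGANTCA, the EGR1 letters GCGNGGGCG, the TEAD letters GGAATG, the CArG box of SRF and the kappa-B site.
Col4a1 (chr16:84885347-84885646, + strand): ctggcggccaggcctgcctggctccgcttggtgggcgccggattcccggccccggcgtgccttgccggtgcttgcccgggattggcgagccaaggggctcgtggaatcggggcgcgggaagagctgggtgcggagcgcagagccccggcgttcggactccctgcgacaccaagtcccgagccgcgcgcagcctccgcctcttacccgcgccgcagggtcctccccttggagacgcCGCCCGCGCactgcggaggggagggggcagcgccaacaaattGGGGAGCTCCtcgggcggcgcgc
Col4a2 (chr16:84885471-84885770, - strand): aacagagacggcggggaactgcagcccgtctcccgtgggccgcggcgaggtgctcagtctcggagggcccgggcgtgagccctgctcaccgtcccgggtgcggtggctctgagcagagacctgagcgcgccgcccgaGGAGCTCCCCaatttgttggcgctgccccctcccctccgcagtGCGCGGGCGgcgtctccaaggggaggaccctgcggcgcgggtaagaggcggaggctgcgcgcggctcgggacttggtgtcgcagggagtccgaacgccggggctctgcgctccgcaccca
Lamc1 (chr13:68051937-68052236, - strand): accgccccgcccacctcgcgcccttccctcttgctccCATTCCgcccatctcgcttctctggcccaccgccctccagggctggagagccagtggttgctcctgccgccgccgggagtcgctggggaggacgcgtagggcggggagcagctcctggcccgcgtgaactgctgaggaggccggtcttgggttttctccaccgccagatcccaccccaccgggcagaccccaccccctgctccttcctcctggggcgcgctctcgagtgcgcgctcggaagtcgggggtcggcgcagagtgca
The starts of Col4a1 and Col4a2 were 77 bases apart and the windows had 176 bases in common. Both windows held the same 2 matches, an EGR1 match at chr16:84885582-84885590 and a kappa-B match at chr16:84885624-84885633, which do not overlap. Lamc1 held 1 TEAD match, and the windows of Spp1 and Lum held no match to the 5 motifs. Over all 33469 promoters of the table, 4.98% held the EGR1 letters, 7.51% a kappa-B match, 14.2% the TEAD letters, 7.33% the AP-1 letters and 1.64% a CArG box. A match is a string of letters and does not show that a factor binds there.

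Signals are the deposited linear intensities, scaled by array. Each change compares the 3 MEHP with the 3 corn oil animals of a time as a difference of mean log2(signal + 16), positive where MEHP was higher, and ± gives its standard error. Adjusted p-values are from limma, by Benjamini-Hochberg over 21190 probe sets. A gene was called at an adjusted p under 0.05. Added to a dim signal, the 16 makes its change smaller. The median signal of an array ran from 117.2 to 165.4 and the RNA integrity number from 8.2 to 10. At 12 h the RNA integrity numbers of the groups did not overlap, with 9.5 to 9.8 after corn oil and 9.2 to 9.3 after MEHP. Where a fit with these numbers as a covariate changed a call, it is given.

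At 12 h, 5 of the 52 matrix genes were higher after MEHP and 1 was lower. The 5 were Col4a1 and Col4a2, the most widespread chains of basement membrane collagen, Lamc1, the gamma chain of most laminins, the crosslinking enzyme Lox, and Spp1, which encodes osteopontin. The 1 lower gene was Lum, which encodes lumican, a proteoglycan that binds collagen fibrils. By probe set, 9 of 69 were called higher (13%), beside 5.06% of all probe sets tested, and 1 was called lower (1.45%), beside 3.68%. The median change of the 52 genes was 0.01, beside -0.04 over all probe sets, with 27 genes above 0 and 25 below, and the changes ran from -0.95 to 2.23.

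**Figure D1:**
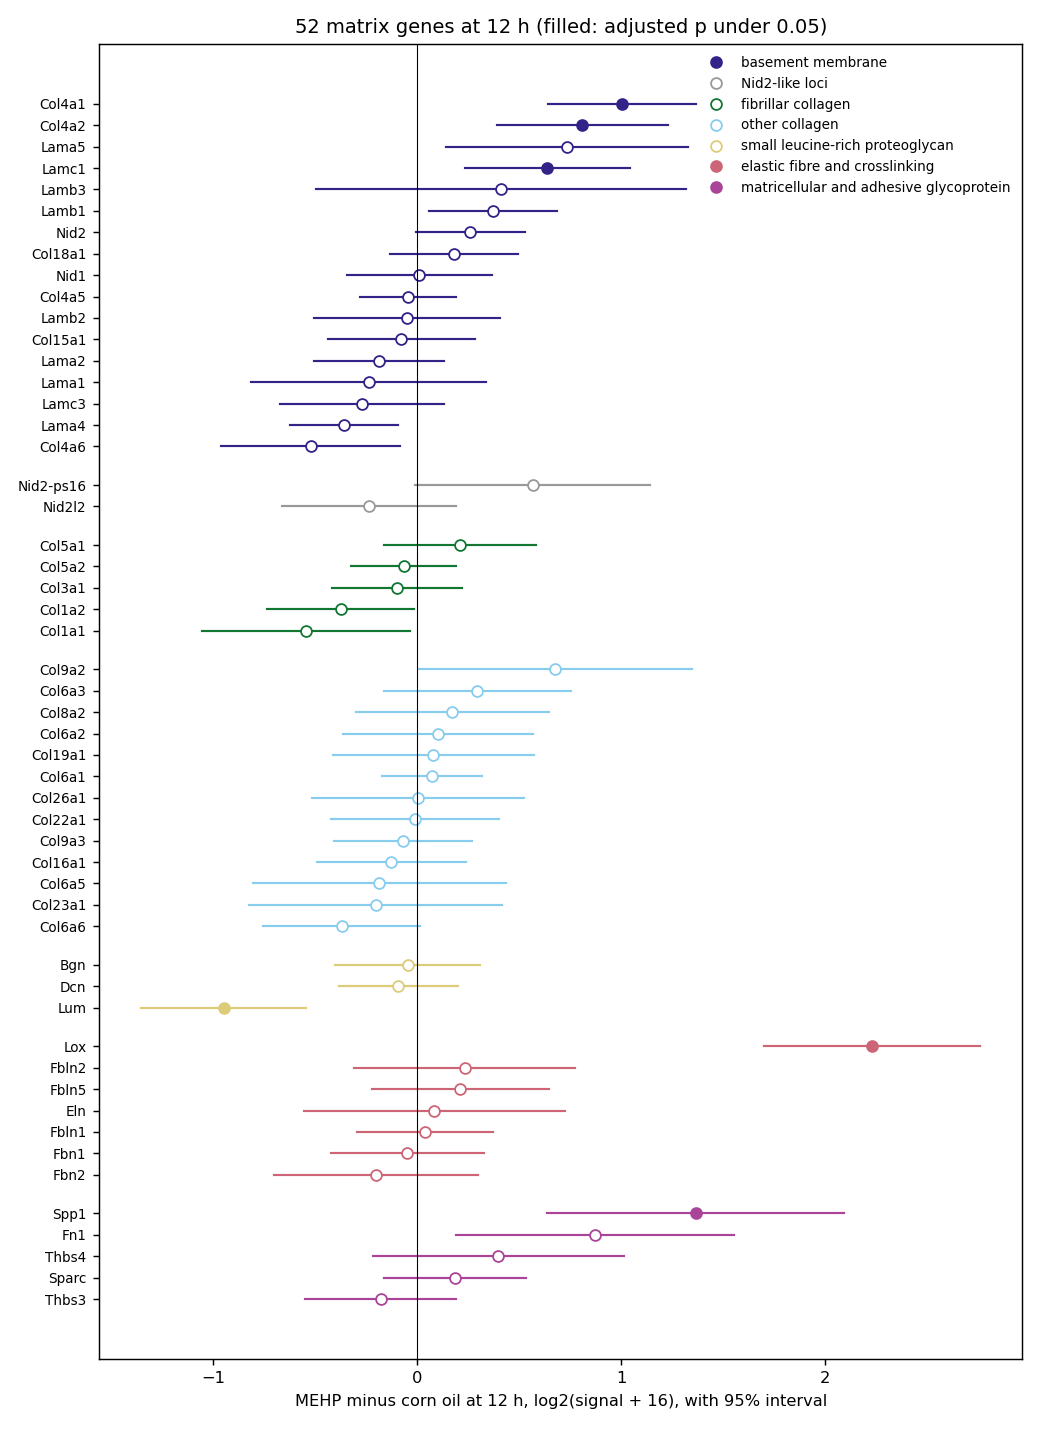
Change of each of the 52 tested matrix genes at 12 h, MEHP minus corn oil in log2(signal + 16), as points with 95% intervals, grouped by role and filled where the adjusted p was under 0.05. Lox at 2.23 is the highest and Lum at -0.95 the lowest, and the intervals of most genes include 0.

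Among basement membrane genes, 3 of 17 tested rose, 0 fell and 14 did not pass by limma. Col4a1 had signals of 583, 481 and 633 in the corn oil animals and 1401, 1139 and 935 in the MEHP animals. Every MEHP animal was above every corn oil animal, and the rise was 2.00-fold (1.00 ± 0.18, adjusted p = 0.000352). Its other probe set had 553, 621 and 674 after corn oil and 1593, 982 and 791 after MEHP (0.79 ± 0.21, adjusted p = 0.0159). Col4a2, whose chain joins that of Col4a1 in the collagen molecule, had 286, 284 and 291 after corn oil and 772, 459 and 385 after MEHP. The corn oil animals were close together, the MEHP animals were all above them with animal 57 highest, and the rise was 1.75-fold (0.81 ± 0.20, adjusted p = 0.0108).

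Lamc1 had 647, 663 and 729 after corn oil and 1643, 893 and 824 after MEHP. The groups did not overlap, animal 57 was again the highest, and the rise was 1.56-fold (0.64 ± 0.20, adjusted p = 0.0412). A further Lamc1 probe set, with 258, 295 and 237 against 532, 406 and 333, gave 0.64 ± 0.19 (adjusted p = 0.0322). The laminin alpha and beta chains that pair with it did not pass. Lama5, an alpha chain of mature basement membranes, had 60.9, 98.6 and 115 after corn oil and 177, 189 and 118 after MEHP (0.74 ± 0.29, adjusted p = 0.127). Lamb1, a beta chain, had 529, 427 and 652 against 789, 736 and 563, with overlapping groups (0.37 ± 0.15, adjusted p = 0.153). Lama1, an alpha chain of early basement membranes, had 473, 411 and 439 against 243, 436 and 479 (-0.24 ± 0.28, adjusted p = 0.727).

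The remaining basement membrane genes lay on both sides of 0. Nid1, which links laminin to type IV collagen, had 3009.6, 2962 and 3795 after corn oil and 2727, 3628 and 3506 after MEHP. The groups overlapped throughout (0.01 ± 0.17, 95% interval -0.35 to 0.37). Col18a1, the source of endostatin, had 999.7, 899.7 and 944 against 1190.5, 1069.9 and 973, also with overlap (0.18 ± 0.15, 95% interval -0.13 to 0.49). The other tested type IV chains, Col4a5 (-0.04 ± 0.11) and Col4a6 (-0.52 ± 0.21, adjusted p = 0.15), were below 0. The Col4a6 groups did not overlap, but the gene had a further probe set at 0.26. Whether they differed from Col4a1 and Col4a2 was not tested. Lama4, an alpha chain of vessel walls singled out after its values were seen, had 484, 427 and 483 after corn oil and 364, 357 and 354 after MEHP, without overlap (-0.36 ± 0.13, adjusted p = 0.0918). The 6 others (Col15a1, Lama2, Lamb2, Lamb3, Lamc3 and Nid2) had changes between -0.27 and 0.41, none of them called. Nid2-ps16, a transcribed Nid2 pseudogene, had 0.57 ± 0.28 (adjusted p = 0.258) on its brightest probe set and 1.14 ± 0.31 (adjusted p = 0.0203) on another. Nid2l2, a further Nid2-like locus, gave -0.23 ± 0.21. These Nid2-like loci are near copies of Nid2, so which of them the probes detect is uncertain.

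Fibrillar collagens, the bulk collagens of the interstitium, did not pass at 12 h: 0 of 5 tested were called by limma, with 4 of the 5 below 0. The main chain of type I collagen, Col1a1, had 1338, 1229 and 1967 after corn oil and 798, 1433 and 898 after MEHP (-0.54 ± 0.25, adjusted p = 0.211). Col1a2, its partner chain, had 1670.3, 1670.5 and 2837 against 1424, 1999 and 1267 (-0.37 ± 0.17, adjusted p = 0.228). Type III collagen, Col3a1, had 4109.8, 3845 and 5985 against 4723, 4928 and 3314 (-0.10 ± 0.15, 95% interval -0.41 to 0.22). In all 3 genes corn oil animal 62 was the highest of its group and the groups overlapped. Col5a1 (0.21 ± 0.18) and Col5a2 (-0.07 ± 0.12), chains that set fibril width, were close to 0. Of the 13 other collagens tested none was called by limma, and their changes ran from -0.37 (Col6a6) to 0.68 (Col9a2, adjusted p = 0.24). They include the beaded filament chains Col6a1, Col6a2 and Col6a3 (0.07, 0.10 and 0.30), besides Col6a5, Col8a2, Col9a3, Col16a1, Col19a1, Col22a1, Col23a1 and Col26a1. At an unadjusted p under 0.05 there were 14 of the 52 matrix genes and 4247 of the 21190 probe sets at 12 h.

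Lum was the only 1 of the 3 small leucine-rich proteoglycans to pass. It had 211, 236 and 264 after corn oil and 76.5, 137 and 141 after MEHP. Every MEHP animal was below every corn oil animal, with animal 57 the lowest, and the level fell to 0.518 of that after corn oil (-0.95 ± 0.20, adjusted p = 0.00197). Decorin, Dcn, which limits fibril thickness, had 1717, 1562 and 1819 against 1891, 1489 and 1431 (-0.09 ± 0.14, 95% interval -0.38 to 0.20). Biglycan, Bgn, its close relative, had 619.7, 607 and 649 against 519, 639.6 and 667 (-0.05 ± 0.17, 95% interval -0.40 to 0.31). Both pairs of groups overlapped.

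Lox had the largest change of the 52 genes. Its signals were 140.2, 112 and 185 after corn oil and 1105, 579 and 609 after MEHP. The lowest MEHP animal was above the highest corn oil animal, and the rise was 4.70-fold (2.23 ± 0.26, adjusted p = 2.35e-06). Another probe set of Lox, with 102, 89.2 and 84.9 against 676, 155 and 439.7, gave 1.81 ± 0.51 (adjusted p = 0.0234). The substrates and scaffolds of elastic fibres did not pass. Elastin itself, Eln, had 257, 214 and 285 after corn oil and 138, 499 and 269 after MEHP, which overlap widely (0.08 ± 0.31, 95% interval -0.56 to 0.73). Fibrillin 1, Fbn1, of the microfibrils had 816, 727 and 878 against 889, 665 and 795 (-0.05 ± 0.18), and its partner Fbn2 gave -0.20 ± 0.24. Fibulin 1, Fbln1, had 289.8, 301 and 269 against 333, 294 and 261 (0.04 ± 0.16), and Fbln2 and Fbln5 gave 0.23 and 0.21, with no call.

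Of the adhesive and matricellular glycoproteins 1 of 5 tested rose. Spp1, a secreted ligand of integrins and a chemoattractant of macrophages, had 57.3, 53.6 and 76.1 after corn oil and 218, 126 and 226 after MEHP. The groups were apart, and the rise was 2.58-fold (1.37 ± 0.35, adjusted p = 0.0133). Its corn oil signals were under the 40th percentile of their arrays, the level used to leave out dim probe sets. Fibronectin, Fn1, the main adhesive protein of provisional matrix, had 283, 267 and 256 after corn oil and 1258, 339 and 298 after MEHP. All MEHP animals were higher, but animal 57 was far above the other 2, and Fn1 did not pass (0.87 ± 0.33, adjusted p = 0.113). Sparc, a collagen-binding glycoprotein, had 2169, 2149 and 2539 against 2519, 3199.8 and 2170.3 (0.19 ± 0.17, adjusted p = 0.615). Thbs3 (-0.18 ± 0.18) and Thbs4 (0.40 ± 0.30), of the thrombospondin family, did not pass either.

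Tnc, which encodes tenascin C, a protein of wound and tumour matrix, was among the 20 genes too dim to be tested. It had 5.78, 15.4 and 4.32 after corn oil and 168, 34.3 and 33.0 after MEHP at 12 h, without overlap and with animal 57 highest. Tested without the filter on dim signals, it was called at 12 h (1.68, adjusted p = 0.00407) and at no other time. It was the only 1 of the 20 called at any time when the filter was dropped. Thbs2, also untested, had 47.4, 56.2 and 15.3 against 45.6, 47.7 and 39.4. The other 18 were Col2a1, Col4a4, Col5a3, Col7a1, Col8a1, Col9a1, Col10a1, Col11a1, Col11a2, Col12a1, Col13a1, Col14a1, Col17a1, Col20a1, Col24a1, Col25a1, Col27a1 and Lama3.

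**Figure D2:**
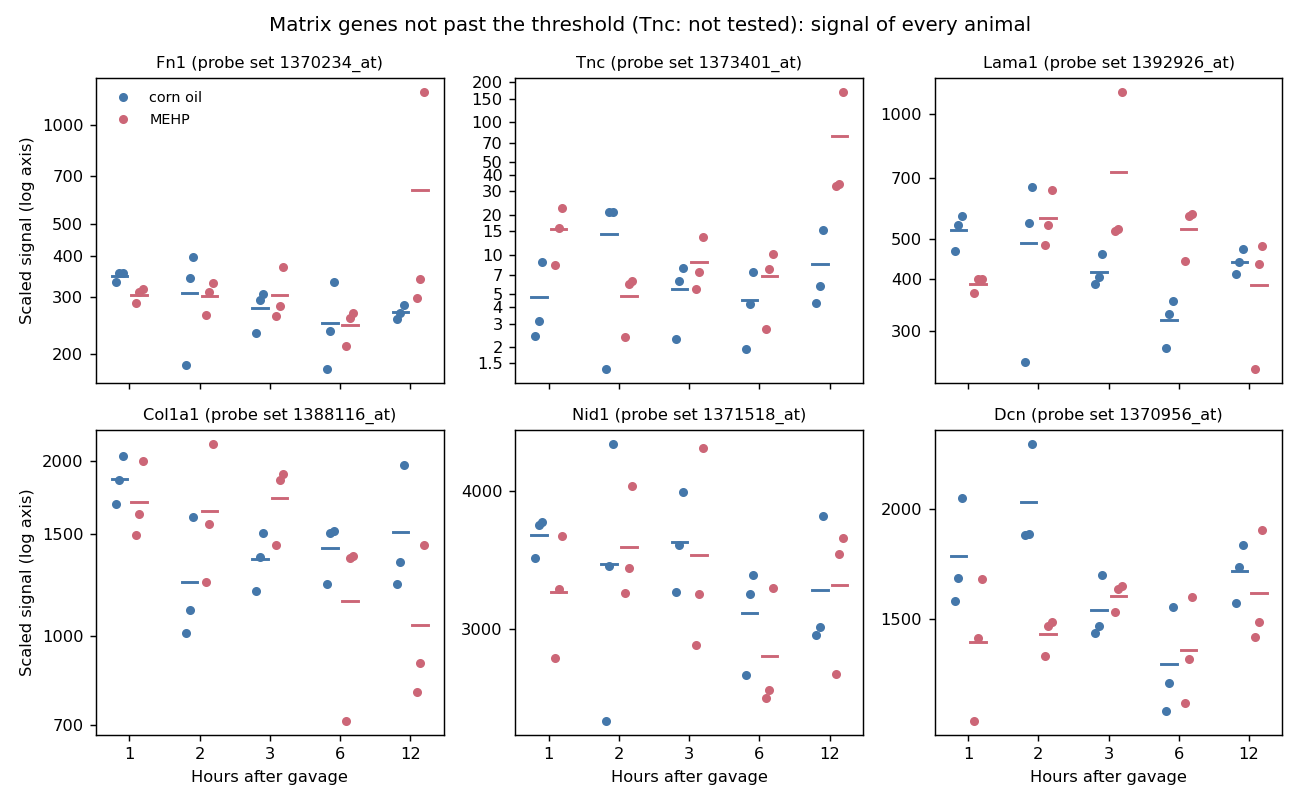
Signal of every animal, on a log axis, for 6 matrix genes that did not pass the test (Tnc was too dim to be tested), by hours after gavage of corn oil (blue) or MEHP (red), with bars at the group means. For Fn1 at 12 h 1 MEHP animal, at 1258, stands far above the other 2, and for Tnc the 12 h MEHP animals are the highest 3 of all 30.

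Of the 17 genes with more than 1 tested probe set, 12 had the same sign on all of them at 12 h and 5 did not (Col4a6, Eln, Fbn1, Nid1 and Sparc). All probe sets of Col4a1, Lamc1 and Lox were called. For Col4a1 and Lox the set other than the brightest was less stable when 1 animal was left out. For Lamc1 it was the reverse, with the brightest lost in 5 omissions and the other in 3. Without animal 57 the second probe set of Col4a1 gave 0.51 (adjusted p = 0.188) and that of Lox 1.38 (adjusted p = 0.197). The second probe set of Col4a1 was also lost without corn oil animal 60, and that of Lox without corn oil animals 60, 61 or 62 or MEHP animal 59. The called probe set of Nid2-ps16 was lost without corn oil animals 61 or 62 or MEHP animal 59. Among the MEHP animals of 12 h, animal 57 had the highest signal in 16 of the 52 matrix genes and the lowest in 21, a share of 30.8% highest beside 40.1% of all probe sets. MEHP animal 58 was the highest in 27 of 52 (51.9%, beside 36.7%), and corn oil animal 62 was the highest of its group in 31 of 52 (59.6%, beside 33.8%). Animal 57 was the highest for Col4a1, Col4a2, Lamc1, Lox, Fn1 and Tnc. Without it 3 of the 6 calls were left, those of Col4a1 and Lox on their brightest probe sets and of Lum, and the changes of Col4a2 (0.53, adjusted p = 0.14), Lamc1 (0.33, adjusted p = 0.386) and Spp1 (1.25, adjusted p = 0.0796) did not pass. With only the 6 arrays of 12 h in the fit Lox alone was called, and adjusted p-values were 0.051 for Col4a1 and 0.141 for Lum. With the RNA integrity number as a covariate, in a fit without corn oil 6 h animal 35, which has no such number, Lamc1 was lost (0.62, adjusted p = 0.0861) and the other 5 were called. The second probe set of Lamc1 was lost in that fit too (0.57, adjusted p = 0.0824). With gene-by-gene array weights, which gave animal 57 the lowest weight of the 30 arrays (0.154), Lamc1 was lost too (0.39, adjusted p = 0.076). Lama4 and Nid2 were called under these weights. The changes of Col4a1 (0.82), Col4a2 (0.54), Lox (2.04), Spp1 (1.49) and Lum (-0.72) passed on the brightest probe sets. The second probe sets of Col4a1 (0.54, adjusted p = 0.0609) and Lamc1 (0.44, adjusted p = 0.102) did not pass, while that of Lox did.

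Before 12 h none of the 52 genes was called by limma with equal array weights. Over all probe sets, 0% were called at 1 h, 0.661% at 2 h, 0.0425% at 3 h, while 6 h had 0.203%. The matrix genes at an unadjusted p under 0.05 numbered 4, 2, 4 and 4 at these times, and all probe sets 518, 2973, 2140 and 1096. Median changes of the 52 genes were -0.08, 0.08, 0.04 and -0.05, beside -0.03, -0.01, 0.01 and 0.00 over all probe sets. With gene-by-gene array weights, an alternative added after the data were seen, limma called 3 genes at 2 h (Dcn, Col4a2 and Col18a1) and 3 at 6 h (Lox, Lama1 and Lamb3), beside 3281 and 489 of all probe sets. With the arrays scaled to a common median, the median at 3 h was -0.12 and that of all probe sets -0.15.

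At 1 h the genes of smallest p were Col22a1 (0.58 ± 0.20), Col6a1 (0.30 ± 0.12) and Dcn (-0.33 ± 0.14), all at an adjusted p of 0.941. At 2 h they were Dcn, Col4a2 and Col18a1. Dcn had 1872, 2369 and 1868 after corn oil and 1359.6, 1489.6 and 1473 after MEHP, so that the groups did not overlap (-0.49 ± 0.14, adjusted p = 0.103). Col4a2 had 231, 201 and 275 against 323, 333 and 315 (0.44 ± 0.20, adjusted p = 0.328), and Col18a1 gave -0.30 ± 0.15 (adjusted p = 0.387). At 2 h the mean log2 signal of 18 spike control probe sets was 11.24 to 12.18 on the corn oil arrays and 10.91 to 11.23 on the MEHP arrays, and with that level as a covariate 0 of 52 genes were called by limma, as without it. Dcn was called with the array median as a covariate, beside 654 of all probe sets. Without corn oil animal 7, whose label is in doubt, Col18a1 was called (-0.54 ± 0.13, adjusted p = 0.0454), and Dcn (-0.54 ± 0.16, adjusted p = 0.0647) and Col4a2 (0.55 ± 0.23, adjusted p = 0.159) were not. All probe sets called at 2 h then numbered 330, beside 140 with it. At 3 h the genes of smallest p were Lox, Lama1 and Nid2-ps16 (0.64 ± 0.28, adjusted p = 0.482). Lama1 had 404, 459 and 388 after corn oil and 1129, 528 and 521 after MEHP (0.68 ± 0.28, adjusted p = 0.48).

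At 6 h they were Lox, Lama1 and Lamb3, each gene taken by its brightest probe set. The less bright probe set of Nid2-ps16 had a smaller p than these, but was not called (1.12 ± 0.31, adjusted p = 0.266). It had 82.8, 44.4 and 63.3 after corn oil and 112, 200 and 158 after MEHP, without overlap. Lama1 had 354, 329.7 and 273 after corn oil and 572, 568 and 442 after MEHP, again without overlap (0.70 ± 0.28, adjusted p = 0.76), whereas at 12 h the groups overlapped. Lamb3, a beta chain of epithelial laminin, gave -1.06 ± 0.44 on dim signals (adjusted p = 0.802). Lox, the gene of smallest p at both times, had 127, 119 and 185 against 417, 172 and 221 at 3 h (0.77 ± 0.26, adjusted p = 0.477). At 6 h it had 141, 141 and 136 against 215, 315 and 183 (0.67 ± 0.26, adjusted p = 0.707). Its MEHP animals were thus all above the corn oil animals at 6 h, but not at 3 h, and neither difference passed.

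**Figure D3:**
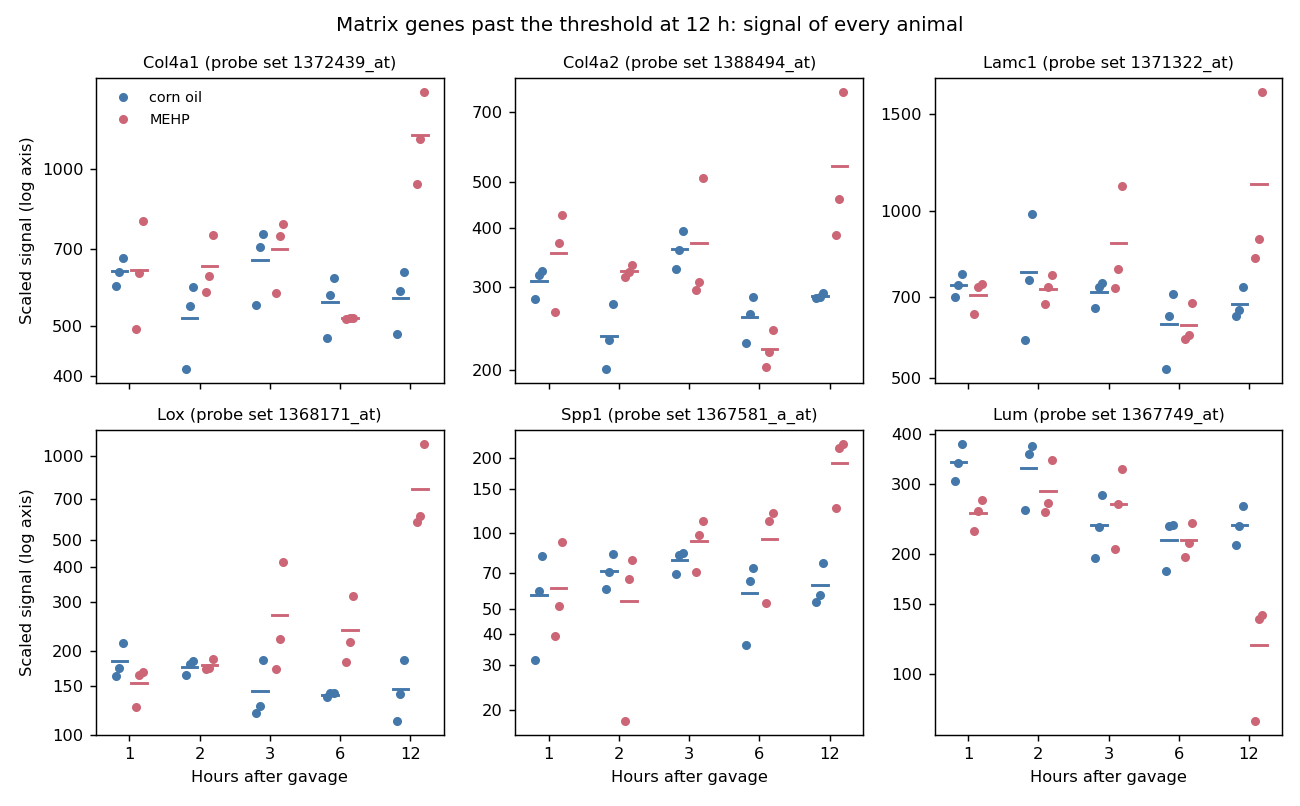
Signal of every animal, on a log axis, for the 6 matrix genes called at 12 h, by hours after gavage of corn oil (blue) or MEHP (red), with bars at the group means. At 12 h all 3 MEHP animals lie above the 3 corn oil animals for 5 genes and below them for Lum, and at most earlier times the groups overlap.

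The change of the difference with time was tested directly. Over the 5 times together, 3 of 52 genes differed between MEHP and corn oil (Col4a1, Lox and Lum), beside 4.71% of all probe sets. The less bright probe set of Nid2-ps16 passed that test too (adjusted p = 0.0245), though its brightest did not. Without corn oil animal 61 or without MEHP animal 57, only Lox of the 52 genes was called over the 5 times together. The difference depended on time for Col4a1 and Lox, 2 of 52, beside 2.87% of all probe sets. For Col4a1 this limma test was near the threshold (adjusted p = 0.0447). Col4a1 was lost in 20 of the 30 omissions of 1 animal, which left Lox alone. Col4a1 and Lox, again 2 of 52, had a larger difference at 12 h than at 6 h, beside 1.5% of all probe sets called in either direction. With gene-by-gene array weights these counts of 3, 2 and 2 were 9, 8 and 4, beside 5459, 5613 and 1029 of all probe sets. With equal weights, all probe sets called numbered 999, 608 and 318. For Col4a1 the difference was -0.09 at 6 h and 1.00 at 12 h, a step of 1.09 ± 0.25 (adjusted p = 0.0228). The other probe set of Col4a1, nearly as bright, had a step of 0.79 ± 0.30 (adjusted p = 0.246). It also did not pass over the 5 times together (adjusted p = 0.234) or for time dependence (adjusted p = 0.309). For Lox the difference was 0.67 and 2.23, a step of 1.56 ± 0.36 (adjusted p = 0.0272), and the other probe set of Lox had 0.56 (adjusted p = 0.91). With the RNA integrity number as a covariate, in a fit that also left out animal 35, neither step passed (0.96, adjusted p = 0.153 for Col4a1, and 1.46, adjusted p = 0.138 for Lox). Leaving out animal 35 alone already lost both (1.01, adjusted p = 0.0696, and 1.55, adjusted p = 0.0587), so the covariate's part in the loss cannot be told apart from that of the missing animal. The step of Col4a1 did not pass without any 1 of corn oil animals 61, 34 and 35 or MEHP animals 57 and 31. That of Lox did not pass without any 1 of corn oil animals 60, 61, 34, 35 and 36 or MEHP animals 57, 31 and 33. Among corn oil animals 0 of 52 matrix genes differed between times, beside 0.033% of all probe sets. With gene-by-gene array weights 24 did, beside 10780 of all probe sets. Without corn oil 2 h animal 7, 4 did (Col18a1, Dcn, Lamb2 and Lum), beside 1941 of all probe sets.

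Other genes of matrix assembly and sensing at 12 h were taken from 5 lists written with earlier results of these data known. Their counts stand beside 5.06% of all probe sets tested called higher at 12 h and 3.68% called lower. Among enzymes that process and crosslink collagen, 3 of 21 tested rose and 0 fell. They were Tgm2, a transglutaminase (2.12-fold), Loxl1, a relative of Lox that acts on elastin (1.51-fold), and P4ha2, which hydroxylates proline in collagen chains (1.45-fold). The list's median was 0.08. Of 13 microfibril and elastic fibre genes, Efemp2, which brings Lox to elastin, rose (0.58 ± 0.17) and Mfap2, a microfibril glycoprotein, fell (-0.72 ± 0.21), with a median of -0.05.

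Of 35 further proteoglycans and matrix glycoproteins, 5 rose and 3 fell, with a median of -0.02. The matricellular proteins Ccn1 and Ccn2 (7.16-fold) rose, as did Sdc4, a cell surface proteoglycan that binds fibronectin (4.95-fold), and Mgp, an inhibitor of calcification (2.45-fold). Ogn (-0.53 ± 0.12), a small proteoglycan of the lumican family, and Postn (-0.73 ± 0.16), which binds collagen, fell. For Ccn1 the mean corn oil signal of 58.7 was under the 40th percentile of the 12 h corn oil arrays (77.6 to 80.3) and the MEHP mean was 846, so its change of 3.48 depends on the added 16. Ccn1 was also called at 2, 3 and 6 h (1.98, 2.05 and 2.63) and Ccn2 at 3 and 6 h (2.01 and 2.46), times at which 0 of the 52 matrix genes were called by limma.

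Of 20 matrix receptors, 5 rose and 1 fell, with a median of 0.40. The integrin chains Itga6 (3.63-fold), which binds laminin, Itgb1 (2.24-fold), the common beta chain, Itga5, of the fibronectin receptor, and Itgav (1.83-fold) rose, as did the syndecan Sdc3. The corn oil means of Sdc3 (34.7) and Itga5 (75.8) were under the 40th percentile too, so that their changes depend on the added 16 and no fold is given. Itgb5 fell to 0.53 of its corn oil level. Of 17 TGF-beta family regulators, Fst (4.24 ± 0.35), Inhba (1.62 ± 0.37) and Tgfb3 (1.89-fold) rose and Inhbb fell to 0.401, with a median of 0.09. Fst and Inhba also had dim corn oil means, of 27.2 and 57.7.

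**Figure D4:**
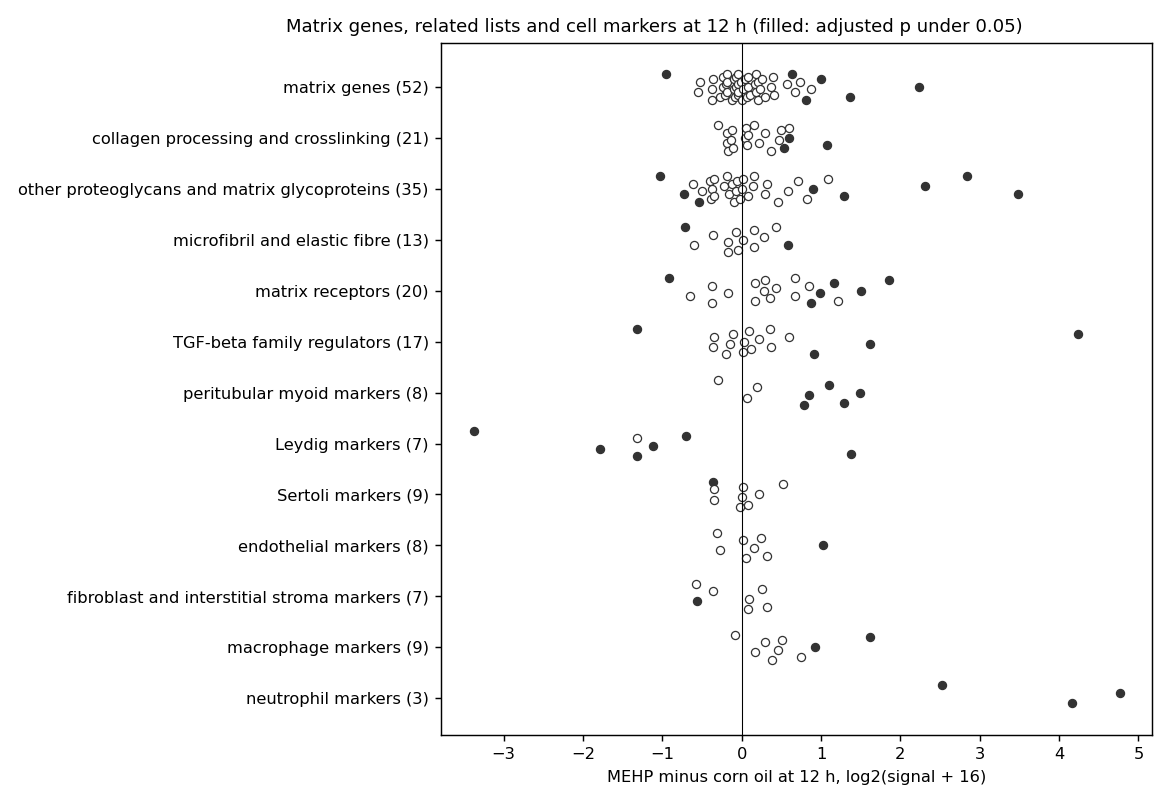
Change of single genes at 12 h, MEHP minus corn oil in log2(signal + 16), for the 52 matrix genes, 5 related lists and 7 lists of cell markers, each with its number of tested genes and filled where the adjusted p was under 0.05. Myoid markers lie mostly above 0 and Leydig markers mostly below it.

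Some markers of testis cell types were called at 12 h, when 5.06% of all probe sets tested were called higher and 3.68% lower. A single call in a list of 7 to 9 genes does not show a change of the cell type. Of 8 peritubular myoid markers 5 rose (Acta2, Cnn1, Tagln, Des and Actg2) and 0 fell, and their summed signal was 4274 to 4689.9 after corn oil and 5879.9 to 8505 after MEHP. Of 7 Leydig markers 5 fell and 1, Star, rose, which had fallen at 6 h (-1.82), with sums of 13439 to 17004 and 3119 to 9100.3. Of 7 neutrophil markers 6 had a probe set, and only 3 (S100a8, S100a9 and Lcn2) passed the filter on dim signals. All 3 rose, with sums of 18.3 to 41.0 and 481 to 7538, so that in corn oil animals they were close to background. Probe sets this dim after corn oil could pass the filter through the 12 h MEHP arrays, so the count of 3 of 3 is not a result about the list. Macrophage markers rose in 2 of 9 (Mrc1 and Cd14), with sums of 1719 to 1932 and 2732 to 3751, and endothelial markers in 1 of 8 (Kdr), with sums of 1051 to 1229.9 and 1239 to 1497. Sertoli markers fell in 1 of 9 (Aard), with overlapping sums of 50224 to 55283 and 50382 to 53618. Stromal fibroblast markers fell in 1 of 7 (Dpt), with sums of 3134 to 3619 and 2984 to 3350.1. Spermatogonia, spermatocyte and spermatid markers had 0 calls by limma in 12 tested. The part of these cell types in the changes of Col4a1, Col4a2, Lamc1, Lox, Spp1 and Lum was not tested.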

How the data were processed

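Testis RNA was hybridised to Rat230_2 arrays, 1 per animal, per the labels. The deposited values are linear intensities, 1 per probe set, scaled by the authors with GCOS 1.0 (named in the submitters' processing notes). How probes were summarised and to what target is unknown here; the 2% trimmed mean was 500.1 to 500.2 on each array. The labels do not say that animals were processed separately beyond their numbers, so p-values measure the spread between these 30 samples.

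A probe set was tested if it reached its array's 40th percentile (66.7 to 93.6) on 3 or more arrays. Group means of log2(signal + 16) were modelled with limma 3.58.1 (R 4.3.3), variance trend and 20 residual degrees of freedom, with Benjamini-Hochberg adjustment. The brightest probe set stood for a gene. The method was tested on simulated data. The members and lists were chosen with earlier results of these data known. Values per animal are given for called genes and 24 fixed members, of which Thbs1 was not analysed here. Where none was called, the 3 of smallest p were named, and in other lists up to 6 called genes by smallest p.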

Additional observations from a re-analysis of the deposited data

Results flagged for a closer look

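The difference between MEHP and corn oil changed from 6 to 12 h for 2 matrix genes, by limma's test of the difference itself. For Col4a1 the 12 h difference exceeded the 6 h difference by 1.093 on the log2 scale (standard error 0.249, adjusted p = 0.0228). For Lox it did so by 1.559 (standard error 0.363, adjusted p = 0.0272), with all 3 MEHP animals above all 3 corn oil animals at both times. These are the brightest probe sets. The other set gave 0.79 (adjusted p = 0.246) for Col4a1 and 0.56 (adjusted p = 0.909) for Lox. Of 30 omissions of 1 animal, 5 lost the Col4a1 step and 8 lost the Lox step. Animals of 6 h and 12 h were dosed at different hours of the day, which cannot be told apart from the interval. Gavage volumes differed as well. At 6 h they were 0.28 to 0.305 ml for corn oil and 0.265 to 0.29 ml for MEHP. At 12 h they were 0.235 to 0.245 ml and 0.21 to 0.265 ml. With volume as a covariate, limma called the step for 4 genes (Col4a1, Col4a2, Lamc1 and Lox). All probe sets called for the step then numbered 690, beside 318 without the covariate.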

How the results depend on the processing

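No paired analysis was possible because each animal number occurs in a single group. The 6 genes called at 12 h were the same with 1 or 64 added in place of 16, quantile or common median scaling, the array median or spike level as a covariate, and robust moderation. Without a filter Tnc was called and Lamc1 was not (adjusted p = 0.0514). A stricter filter, the 60th percentile in at least 6 arrays, left 4 and did not test Lox or Spp1. Gavage volume as a covariate gave 7 (Lama4 added), the mean over probe sets 7 (Nid2-ps16 added), RNA integrity, added after the data were seen and fitted without animal 35, 5, and only the arrays of that time 1. Leaving out 1 animal gave 3 to 9 genes at 12 h, 0 to 1 at 2 h, 1 to 4 for any time, 1 to 2 for time dependence, 0 to 4 for the step from 6 to 12 h and 0 to 4 between corn oil times. The array median as a covariate gave 1 at 2 h, beside 654 of all probe sets. Time dependence held for 1 gene without a filter, with the stricter filter, with common median scaling, and with spike level or RNA integrity as a covariate. The step from 6 to 12 h held for 1 with the stricter filter, 4 with gavage volume and 0 with RNA integrity. These stand beside 174, 690 and 101 of all probe sets. Gavage volume gave 5 for any time and 2 between corn oil times, beside 1451 and 872 of all probe sets. The planned array quality weights did not converge with limma's default method and are left out. The gene-by-gene method, added after that was seen, ran and moved most counts: 3 at 2 h, 3 at 6 h, 9 for any time, 8 for time dependence, 4 for the step from 6 to 12 h and 24 between corn oil times, with 7 at 12 h (Lama4 and Nid2 added, Lamc1 lost). For the moved counts, in the same order, 3281, 489, 5459, 5613, 1029 and 10780 of all probe sets were called. With equal weights these were 140, 43, 999, 608, 318 and 7. The cause of these moves was not tested. The brightest probe sets of Col4a1, Lox and Lum stayed called at 12 h in each of the 30 omissions (adjusted p at most 0.0058, 4.7e-05 and 0.0296). Lamc1 did not pass without corn oil animals 60, 61, 62 or 40 either, nor Spp1 without 60, 61 or 59. No called probe set changed sign under these settings. With 3 animals per group, a missed threshold does not show that a gene did not change, and for dim genes such as Spp1 and Tnc the added 16 sets the size of the change.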
